A study of Mus musculus with 16 samples.

Results

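The genes described here encode the proteins of the mitochondrial ribosome. They were chosen by symbol alone, as every gene of the TPM table named Mrpl or Mrps plus a number and, for some, a letter from a to c, and no measured value was used. The rule found 77 genes of the 35869 in the table, 48 of them named for the large subunit (Mrpl) and 29 for the small subunit (Mrps). RNA was sequenced from microglia, the resident macrophages of the brain, that were isolated from young (2 months) and old (18 months) C57/Bl6 wild-type mice and incubated in culture for 2 h with 2.5 μM of the amyloid peptide Aβ42. The cells were then sorted into those that carried Aβ42 (Aβ42+) and those that did not (Aβ42−). This gave 4 groups of 4 libraries each, Aβ42+ and Aβ42− cells of young and of old mice, and all 16 libraries came from cells exposed to the peptide, so no group was without it. Each library came from pooled mice, and the Aβ42+ and Aβ42− libraries of the same age and number were 2 sorts of 1 pool.

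Mitochondria carry their own ribosomes, which translate only the 13 proteins that mitochondrial DNA encodes, all of them subunits of the respiratory chain and of ATP synthase. The ribosomal RNAs of these particles are mitochondrial transcripts, whereas every ribosomal protein is encoded in the nucleus, made in the cytosol and imported. The proteins have to be made in balanced amounts, since a subunit that lacks a protein is not assembled and unassembled proteins are degraded. In macrophages, the microglia among them, respiration is known to shift with activation.

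The values were length-scaled transcript abundances (TPM), which scale each gene by its length and each library to the same total, so the number of reads behind a value was unknown and no counting interval could be given. A background level, taken as the 10% trimmed mean of 1451 odorant and vomeronasal receptor genes that microglia are not known to use, ran from 0.328 to 11.6 TPM, and was lowest in replicate 1 and highest in replicate 3 of each group. The library old Aβ42+ replicate 3 stood apart, with the highest background level and the lowest microglia marker sum within its group. All 12 microglia markers were detected in every library, the lowest being Sall1 at 12.2 TPM, and their summed level was 2679 to 3034 TPM in young Aβ42+, 2605 to 2656 in young Aβ42−, 1549 to 2504 in old Aβ42+ and 1496 to 2198 in old Aβ42− libraries. Markers of granulocyte precursors (Elane, Mpo, Prtn3 and Ctsg, 4 of 4 detected in all libraries) summed to 72.2 to 136 TPM in young Aβ42+, 1044 to 1767 in young Aβ42−, 141 to 781 in old Aβ42+ and 1676 to 2865 in old Aβ42− libraries. Neutrophil markers summed to 2244 to 2893, 4034 to 5812, 2798 to 4765 and 4249 to 6202 TPM in the same order of groups. T and NK cell markers summed to 16 to 54.3, 371 to 529, 28.6 to 57.8 and 308 to 457 TPM, and B cell markers to 16.3 to 52.7, 41.7 to 116, 65.5 to 192 and 108 to 339 TPM. Sums for neurons, astrocytes, oligodendrocytes and endothelial cells stayed at or below 207 TPM in every library, and no marker on any list was at 0. In bulk RNA of this kind, fewer cells of a type and less RNA per cell cannot be told apart.

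All 77 mitochondrial ribosomal protein genes were expressed above the filter in each comparison. Their means over the 16 libraries ran from 3.78 TPM for Mrpl55 to 226 TPM for Mrpl33, a 59.8-fold range, with a median of 48.2 TPM. Of the 77 genes, 13 averaged at least 100 TPM, 74 at least 10 TPM and 16 under 20 TPM. The other 2 genes under 10 TPM were Mrps10 at 6.98 TPM and Mrps27 at 9.56 TPM. Mrps27 belongs to the pentatricopeptide repeat family of RNA-binding proteins. After Mrpl33, the highest means were those of Mrpl54 (184 TPM), Mrpl52 (183 TPM) and Mrps7 (181 TPM). Mrpl33 and Mrps7 have counterparts in the bacterial ribosome, and Mrpl52 and Mrpl54 do not. The median was 47.3 TPM for the large-subunit and 56.3 TPM for the small-subunit genes. The particle itself holds a single copy of most of these proteins.

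**Figure D1:**
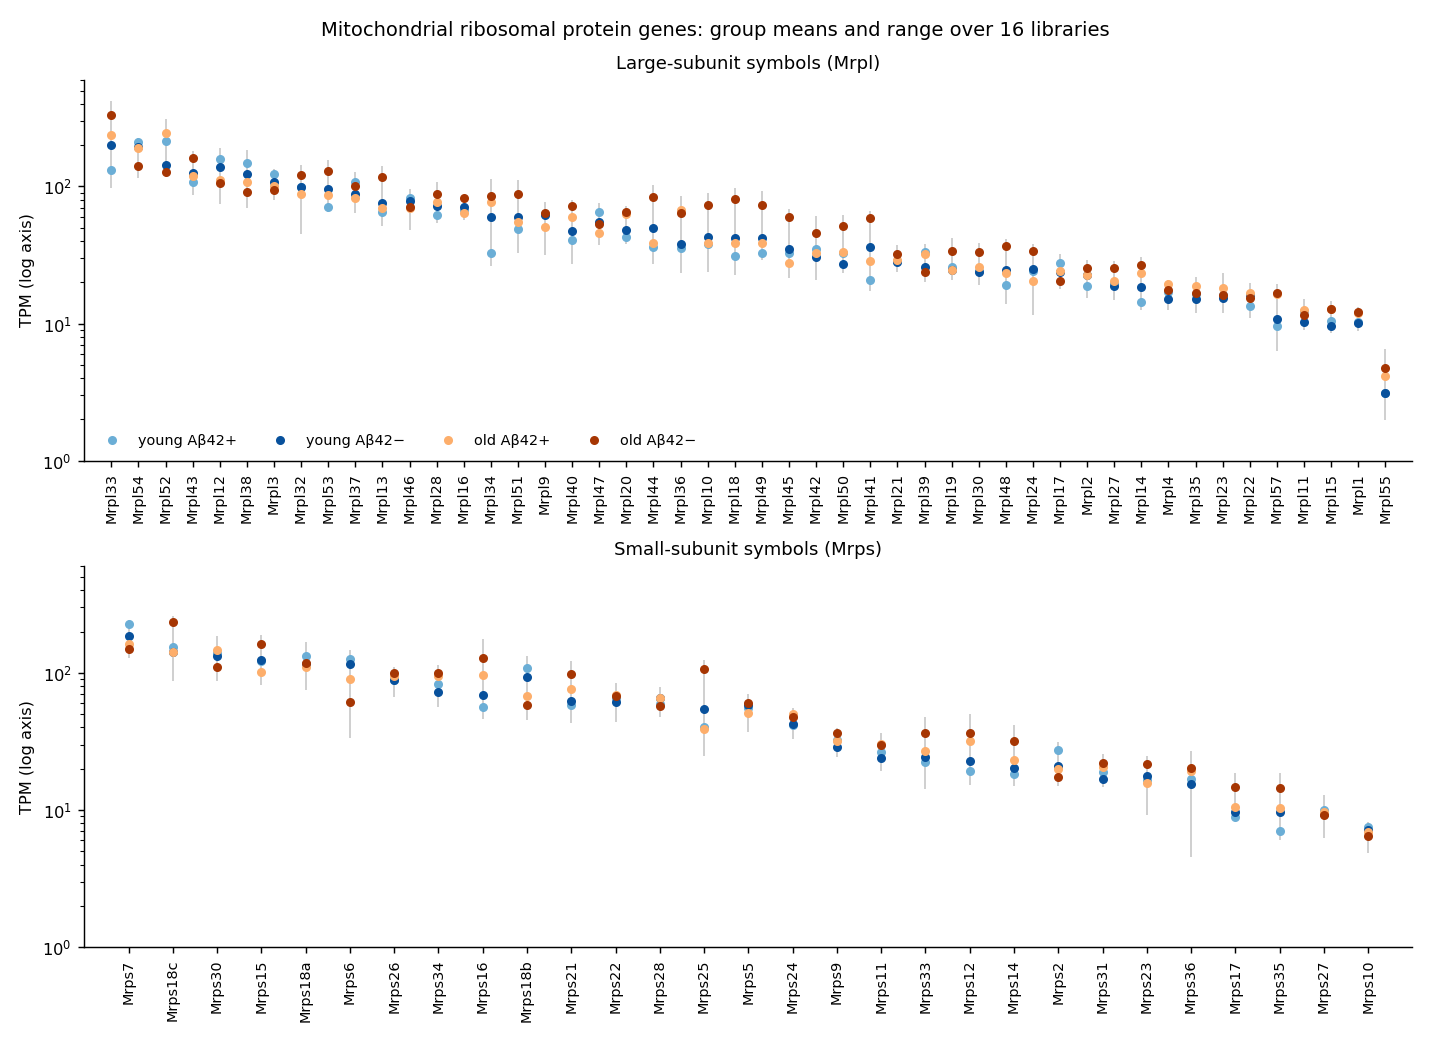
Group means of the 48 large-subunit (upper panel) and 29 small-subunit (lower panel) genes in TPM on a log axis, with the genes ordered by their mean over 16 libraries. Coloured points are the means of 4 libraries per group and grey lines run from the lowest to the highest library, and old Aβ42− has the highest group mean for 48 of the 77 genes. The share of all genes highest in that group was not counted.

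By role, the 8 large-subunit genes with a bacterial counterpart that were examined as ribosomal RNA-binding core proteins (Mrpl2, Mrpl3, Mrpl4, Mrpl11, Mrpl22, Mrpl23, Mrpl24 and Mrpl27) averaged between 11.7 TPM for Mrpl11 and 106 TPM for Mrpl3. The 6 conserved genes of the small subunit that were examined (Mrps2, Mrps5, Mrps7, Mrps12, Mrps14 and Mrps16) averaged between 21.5 TPM for Mrps2 and 181 TPM for Mrps7. Mrps12, part of the decoding centre, averaged 27.5 TPM. Of the proteins that bacteria lack, Mrps22, Mrps25, Mrps27, Mrps34 and Mrps35 averaged between 9.56 TPM for Mrps27 and 88.0 TPM for Mrps34. Of the exon length of Mrps34, 77.8% is also covered by Mapk8ip3 on the opposite strand, which averaged 16.3 to 24.2 TPM in the groups, and the values may share reads because the strand setting of the counting is not stated. The stalk of the large subunit, which recruits translation factors, is built by Mrpl10 (48.3 TPM) and Mrpl12 (129 TPM). Mrpl44, which resembles ribonuclease III, averaged 51.8 TPM, and Mrpl45, which faces the inner membrane near the exit tunnel, averaged 38.8 TPM. A few symbols name other places than their letter. Mrps30 (132 TPM) and Mrps18a (119 TPM) lie in the large subunit, and Mrps36 (17.9 TPM) is a subunit of the 2-oxoglutarate dehydrogenase complex.

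Summed over the 77 genes, the members took 3653 TPM (old Aβ42+ replicate 3) to 5860 TPM (old Aβ42− replicate 1). The group means were 4375 ± 407 (SD, n = 4) in young Aβ42+, 4338 ± 417 in young Aβ42−, 4432 ± 555 in old Aβ42+ and 5147 ± 658 TPM in old Aβ42− libraries, and the ranges of the groups overlapped. The median of the 77 genes within a library was 32.6 to 36.3 TPM in young Aβ42+, 38.0 to 48.2 TPM in young Aβ42−, 29.3 to 48.9 TPM in old Aβ42+ and 48.0 to 63.4 TPM in old Aβ42−. Old Aβ42− replicate 3, with the highest background level of its group, had the lowest median there, and the ranges of the young Aβ42+ and young Aβ42− medians did not overlap. Gene by gene, however, the members' median log2 fold change between the young sorts was −0.001, with 38 of 77 positive. The large-subunit sum was 1.40 to 1.5 times the small-subunit sum in young Aβ42+, 1.47 to 1.63 times in young Aβ42−, 1.43 to 1.70 times in old Aβ42+ and 1.48 to 1.78 times in old Aβ42− libraries. The median coefficient of variation of a member within a group was 14.9%, 15.3%, 17.6% and 17.0% in the same order, and the highest was 52.3%, in old Aβ42+.

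**Figure D2:**
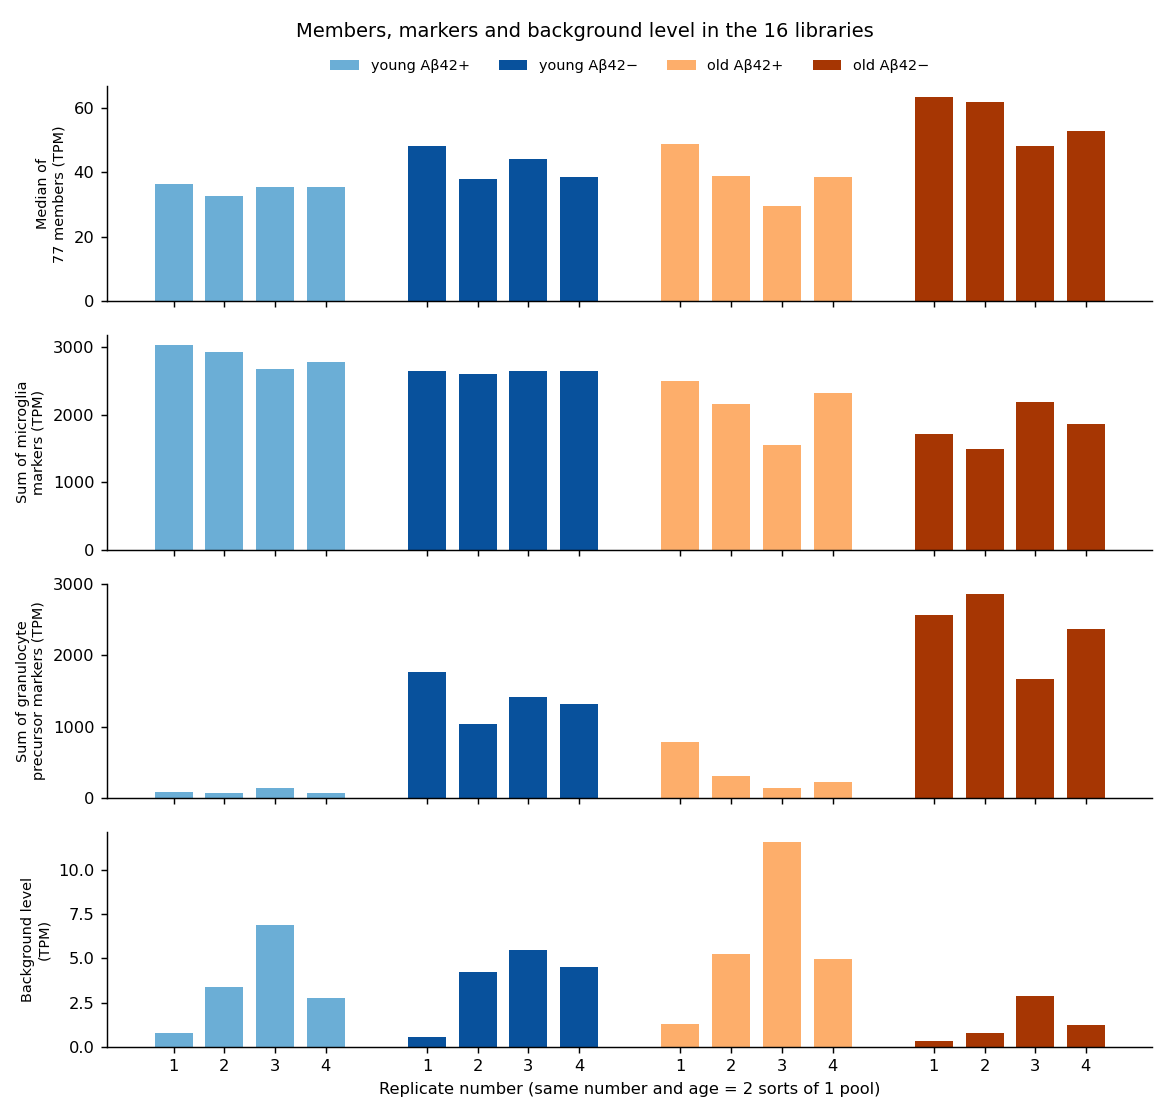
Bars give, for each of the 16 libraries, the median TPM of the 77 genes, the summed TPM of the microglia markers, the summed TPM of the granulocyte precursor markers and the background level in TPM, with all axes starting at 0. The 4 old Aβ42− libraries have medians of 48.0 to 63.4 TPM and precursor sums of 1676 to 2865 TPM, and background is highest in replicate 3 of each group.

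The group in which a gene had its highest mean was old Aβ42− for 48 genes, young Aβ42+ for 16, old Aβ42+ for 12 and young Aβ42− for 1. The lowest mean was in young Aβ42+ for 28 genes, in young Aβ42− for 20, in old Aβ42− for 15 and in old Aβ42+ for 14. The single library old Aβ42+ replicate 3 was the lowest of all 16 for 25 genes. The same counts over all genes were not made, so these numbers are not particular to the members. The design gave 4 comparisons. Old against young cells were compared within each sort, which addresses ageing in cells that had or had not taken up Aβ42, and Aβ42− against Aβ42+ cells within each age, which addresses uptake. The comparisons share libraries with each other, so their values are given side by side and are not independent. Fold changes are on the log2(TPM + 1) scale, with the standard error of the limma fit. Genes were called where limma's p, adjusted over all genes tested by the Benjamini-Hochberg method, did not exceed 0.05.

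Between old and young Aβ42+ cells, none of the 77 genes was called by limma in either direction, and 14 had an unadjusted p no higher than 0.05. Such a p was found for 3096 of all 33578 genes tested. Among all genes tested, 0.0208% were called higher and 0.00596% lower in old cells, so hardly any gene was called. In 9 members (11.7%) every old Aβ42+ library was above every young Aβ42+ library, against 2.85% of all genes and 4.1% of genes averaging at least 10 TPM. In 1 member (1.3%), Mrpl37, every old library was below every young library, against 2.65% of all genes and 5.77% of those averaging at least 10 TPM. The members' median log2 fold change was 0.096, that of all genes tested 0.383 and that of genes averaging at least 10 TPM 0.059. Its sign turned with the scaling, to −0.141 with upper-quartile scaling and −0.125 after the background level was subtracted, and the median of the abundant genes moved with it, between −0.205 and 0.093. Without old Aβ42+ replicate 3, 1 member was called higher, beside 37 genes called higher and 7 lower of 32689 tested.

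The largest positive fold change was that of Mrpl34, a small protein with a bacterial counterpart. It measured 26.1, 32.9, 40.4 and 30.5 TPM in the 4 young Aβ42+ libraries and 65.9, 78, 90.7 and 74.4 TPM in the 4 old ones. The groups did not overlap, and the exact permutation p was 0.0286 (two-sided), the smallest that 4 against 4 libraries allow. In limma its log2 fold change of 1.23 (SE 0.18) had an adjusted p of 0.139. The groups also did not overlap for Mrps16, a conserved small-subunit protein, which measured 57.8, 46.4, 57 and 65.5 TPM in young as against 107, 91.6, 72.9 and 112 TPM in old Aβ42+ libraries (log2 fold change 0.74, SE 0.18, limma adjusted p = 0.416). Mrpl36, a small protein with a bacterial counterpart, averaged 35.4 ± 8.34 TPM in young as against 67.4 ± 16.6 TPM in old Aβ42+ cells. Mrpl57 averaged 9.66 ± 2.26 TPM and 16.3 ± 2.62 TPM. At the other end stood Mrps18b, which averaged 108 ± 27 TPM in young mice and 67.3 ± 20 TPM in old ones, and the stalk protein Mrpl12, with 159 ± 34.1 TPM and 111 ± 37 TPM (SD, n = 4 throughout), and for both the groups overlapped. Granulocyte precursor markers, which summed to 72.2 to 136 TPM in the young and to 141 to 781 TPM in the old libraries of this sort, moved with this comparison, and their part in these values was not tested.

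In Aβ42− cells, 4 of the 77 genes (5.19%) were called higher in old than in young mice and none lower, and 32 had an unadjusted p no higher than 0.05. Such a p was found for 7686 of all 31982 genes tested. Over all genes tested, limma called 1.73% higher and 0.416% lower, and of genes averaging at least 10 TPM, as 74 of the members do, 4.75% and 0.786%. Every old Aβ42− library was above every young one for 18 members (23.4%), against 5.96% of all genes and 13.7% of genes averaging at least 10 TPM. The reverse held for 4 members (5.19%), Mrps6, Mrps18b, Mrpl54 and Mrpl17, against 5.07% and 7.64%. Of the 77 log2 fold changes, 59 were positive. Their median was 0.365, while that of genes averaging at least 10 TPM was 0.108 and that of all genes tested was −0.556. The members lay 0.257 above the abundant genes, and 0.141 to 0.333 above them over the other settings tried, while scaling moved the median of the abundant genes themselves between −0.034 and 0.243. For 38 of 48 large-subunit genes the fold change was positive, with a median of 0.379, and for 21 of 29 small-subunit genes, with a median of 0.285.

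The 4 genes that rose were Mrpl41, Mrpl33, Mrpl50 and Mrps18c. Mrpl41 (chr2:24972470-24975098, mm10), a large-subunit protein without a bacterial counterpart, measured 34.7, 35.7, 38.3 and 36 TPM in young as against 62.9, 66.4, 55.1 and 49.8 TPM in old Aβ42− libraries. The old libraries were all higher, by a log2 fold change of 0.67 (SE 0.13, limma adjusted p = 0.045). Mrpl33 (chr5:31613951-31622644), the most abundant member, measured 219.7, 176, 200 and 206 TPM in young and 352, 423, 266 and 289 TPM in old libraries, again without overlap (log2 fold change 0.71, SE 0.15, adjusted p = 0.0486). Mrpl50 (chr4:49512597-49521083), which bacteria lack, measured 31.9, 24.5, 23.5 and 29.2 TPM in young and 54.1, 62, 37.6 and 50.4 TPM in old libraries. Its log2 fold change was 0.87 (SE 0.18, adjusted p = 0.0487), and the old library nearest to the young ones was replicate 3. Mrps18c (chr5:100798759-100804467), the paralog that takes the place of bacterial S18 in the small subunit, measured 169.9, 133, 149.7 and 114 TPM in young and 249.6, 259, 227 and 201 TPM in old libraries (log2 fold change 0.73, SE 0.14, adjusted p = 0.0433). Of its exon length, 23.2% is shared with a predicted gene.

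The adjusted p-values of the 4 genes lay just under the threshold, and the count moved widely when single libraries were left out. It was 30 (27 higher, 3 lower) without young Aβ42− replicate 1 and 22 (19 higher, 3 lower) without old Aβ42− replicate 3. In the first of these fits 3141 of 11765 genes averaging at least 10 TPM were called higher and 1778 lower. In the second these were 2256 and 1044 of 11546. The count of members was 0 without any one of the other 6 libraries. It was also 0 after scaling to the upper quartile and in a fit that held background as a covariate. With median-of-ratios scaling 3 members were called higher and 3 lower, beside 770 and 444 of 11673 genes averaging at least 10 TPM. The largest positive fold change of the members was that of Mrps25, which was not called, with values from 54.2 ± 20.4 TPM to 106 ± 24 TPM (log2 fold change 1.00, SE 0.26, limma adjusted p = 0.0766). Mrpl18 averaged 42.3 ± 7.49 TPM and 80.7 ± 19.3 TPM, Mrps16 69 ± 7.06 TPM and 128 ± 39.8 TPM, and Mrpl49 42.2 ± 10.1 TPM and 72.8 ± 18.7 TPM in young and old Aβ42− cells (SD, n = 4). For these 3 genes the groups did not overlap. Mrps6, a conserved small-subunit protein, had the most negative fold change. It measured 128, 106, 106 and 124 TPM in young as against 64, 33.2, 93.7 and 52.8 TPM in old Aβ42− libraries, which did not overlap (log2 fold change −1.01, SE 0.27, limma adjusted p = 0.076). Mrpl54 was also below its young range in every old library, namely 149.9, 147, 152 and 116 TPM, where the young libraries had 193, 202, 169 and 212 TPM. Among the old Aβ42− libraries, replicate 3 was the highest for Mrps6 and Mrpl54 and the lowest for 44 of the 77 members. That library also had the lowest precursor marker sum (1676 TPM), the highest microglia marker sum (2198 TPM) and the highest background level (2.89 TPM) of its group. In the young Aβ42− libraries microglia markers summed to 2605 to 2656 TPM and background was 0.549 to 5.47 TPM, and in the old ones these were 1496 to 2198 TPM and 0.328 to 2.89 TPM. Whether cell make-up or background contributed to the differences was not tested.

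For 4 genes, Mrpl20, Mrpl40, Mrpl57 and Mrps16, every old library lay above every young library of the same sort in both sorts, and no gene did the reverse in both. Mrpl20 and Mrpl40 were singled out here after their values were seen. Mrpl20, which binds ribosomal RNA early in assembly in bacteria, measured 40.8, 42.5, 45.5 and 42.6 TPM in young Aβ42+ and 63.1, 64.8, 60.7 and 62 TPM in old Aβ42+ libraries. In the Aβ42− sort it measured 45.8, 38, 51.9 and 55.5 TPM in young and 71.7, 72.2, 57.8 and 58.8 TPM in old libraries. Mrpl40 averaged 40.9 ± 9.18 TPM and 59.6 ± 1.76 TPM in young and old Aβ42+ cells, and 47.2 ± 6.16 TPM and 72.1 ± 6.80 TPM in young and old Aβ42− cells. None of the 4 was called in either comparison.

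**Figure D3:**
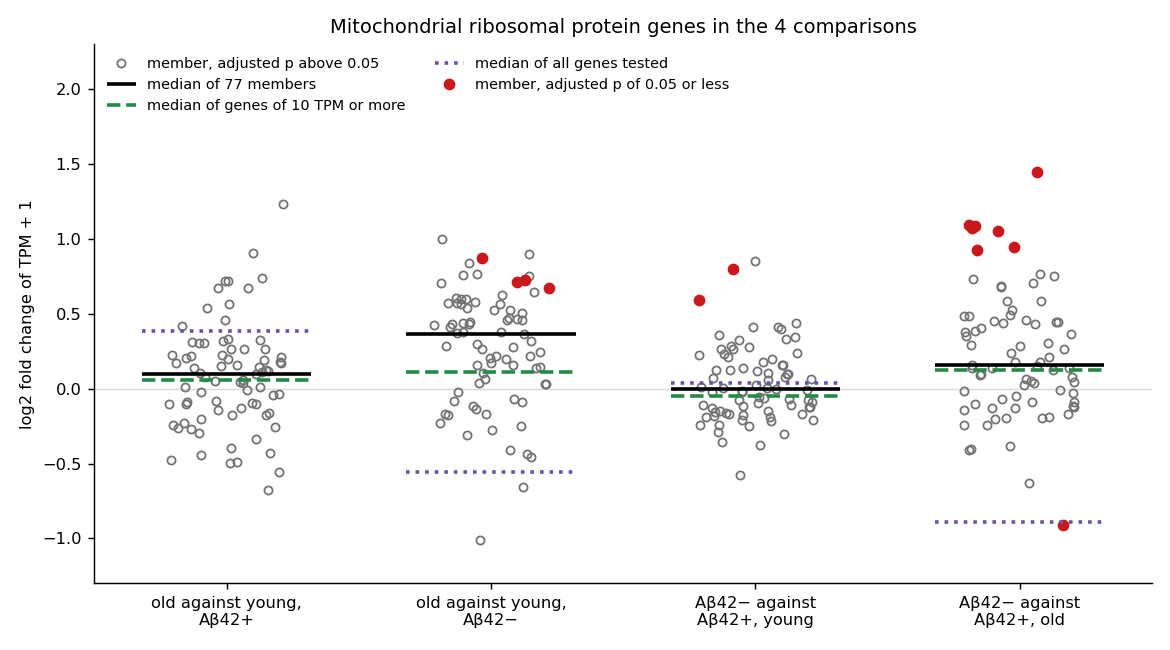
Each circle is the log2 fold change of TPM + 1 of 1 of the 77 genes in 1 of the 4 comparisons, filled red where the adjusted p was 0.05 or less, and spread sideways only for legibility. Solid lines are the medians of the 77 genes (0.096, 0.365, −0.001 and 0.155 from left to right), dashed lines the medians of genes averaging at least 10 TPM, and dotted lines the medians of all genes tested.

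In young mice, 2 of the 77 genes (2.6%) were called higher in Aβ42− than in Aβ42+ cells and none lower, and 9 had an unadjusted p no higher than 0.05. Such a p was found for 2320 of all 33281 genes tested. Limma called 1.43% of all genes tested higher and 0.243% lower, and of genes averaging at least 10 TPM 3.69% and 0.615%. All Aβ42− libraries were above all Aβ42+ libraries for 5 members (6.49%), against 4.05% of all genes and 8.02% of genes averaging at least 10 TPM. All were below for 1 member (1.3%), against 1.6% and 3.48%. The median log2 fold change of the members was −0.001, with 38 of 77 positive, beside −0.048 for genes averaging at least 10 TPM and 0.037 for all genes tested. With the pool as a block no member was called higher and 1 lower, beside 1.41% higher and 0.43% lower among all genes and 3.66% and 1.07% among genes averaging at least 10 TPM.

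The genes called were Mrpl33 and Mrpl41. Mrpl33 measured 111, 134, 142 and 144 TPM in young Aβ42+ libraries and, as above, 176 to 219.7 TPM in young Aβ42− libraries. The sorts did not overlap (log2 fold change 0.59, SE 0.12, limma adjusted p = 0.044), and with the pool as a block the adjusted p was 0.0797. Mrpl41 measured 17.1, 22.1, 18.3 and 24.8 TPM in Aβ42+ and 34.7 to 38.3 TPM in Aβ42− libraries, also apart (log2 fold change 0.80, SE 0.16, adjusted p = 0.045, 0.0583 with the pool as a block). Neither was called within pools, and each was higher in the Aβ42− sort of 4 of 4 pools. No member was called in young mice after upper-quartile scaling or in a fit over all 16 libraries. Mrpl52, which bacteria lack, was lower in all 4 Aβ42− libraries, with 155, 128, 124 and 166 TPM, than in the Aβ42+ libraries, with 234, 170.2, 198 and 262 TPM. Its log2 fold change was −0.58 (SE 0.16), with a limma adjusted p of 0.178 without and 0.0253 with the pool as a block. Mrpl34, which averaged 32.5 ± 6.0 TPM in Aβ42+ and 59.5 ± 12.2 TPM in Aβ42− cells (SD, n = 4), had the largest positive fold change of the members and no overlap (log2 fold change 0.85, SE 0.19, adjusted p = 0.0721). Between the young sorts, precursor markers stood at 72.2 to 136 and 1044 to 1767 TPM and T and NK cell markers at 16 to 54.3 and 371 to 529 TPM in Aβ42+ and Aβ42− libraries, with neutrophil markers at 2244 to 2893 and 4034 to 5812 TPM, and their part in these differences was not tested.

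In old mice, 7 of the 77 genes (9.09%) were called higher in Aβ42− than in Aβ42+ cells and 1 (1.3%) lower, and 17 had an unadjusted p no higher than 0.05. Such a p was found for 14747 of all 32429 genes tested, a larger share than among the members. Of all genes tested, 4.74% were called higher and 8.23% lower, and of genes averaging at least 10 TPM 11.6% and 10.4%. The groups did not overlap for 11 members that were higher (14.3%), against 8.12% of all genes and 18.6% of genes averaging at least 10 TPM, and for 1 that was lower (1.3%), against 13.8% and 11.3%. The members' median log2 fold change was 0.155, with 52 of 77 positive, beside 0.125 for genes averaging at least 10 TPM and −0.893 for all genes tested. The difference between the members' median and that of these abundant genes was 0.03, and the members' median was 0.002 with median-of-ratios scaling and −0.027 with background as a covariate. With the pool as a block 16 members (20.8%) were called higher and 3 (3.9%) lower, beside 10.7% and 47.2% of all genes and 25.3% and 23% of genes averaging at least 10 TPM.

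The largest rise was that of Mrps25 (chr6:92169512-92184023, mm10), a small-subunit protein that bacteria lack. It measured 55.2, 43.9, 24.6 and 33 TPM in old Aβ42+ and 118, 124, 71.2 and 112 TPM in old Aβ42− libraries. Every Aβ42− library was above every Aβ42+ library, by a log2 fold change of 1.45 (SE 0.27, limma adjusted p = 0.023). Of its exon length, 69.8% is also covered by Nr2c2, an orphan nuclear receptor gene on the opposite strand, which measured 8.22 to 13.0 TPM in old Aβ42+ and 18 to 30.7 TPM in old Aβ42− libraries (log2 fold change 1.23, SE 0.25, adjusted p = 0.0268). Since it is not stated whether reads were counted by strand, the Mrps25 and Nr2c2 values may share reads.

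Mrpl44 (chr1:79776018-79781445) measured 42.5, 34.3, 27.4 and 49.2 TPM in old Aβ42+ and 97.8, 102, 58.2 and 73.9 TPM in old Aβ42− libraries, a log2 fold change of 1.09 (SE 0.24, limma adjusted p = 0.0324). Mrpl45 (chr11:97314923-97329920) measured 34, 29.3, 21.5 and 26.1 TPM and 68.5, 61.5, 41 and 67.8 TPM (log2 fold change 1.07, SE 0.22, adjusted p = 0.028). For both, the sorts did not overlap. Mrpl18 (chr17:12911345-12917787), a protein of the family that binds 5S ribosomal RNA in bacteria, measured 54.8, 38.7, 22.5 and 37.4 TPM and 90.4, 97.1, 53.3 and 82 TPM (log2 fold change 1.08, SE 0.28, adjusted p = 0.042), and here Aβ42+ replicate 1 lay above Aβ42− replicate 3. Mrpl41 measured 35.5, 35, 19.7 and 23.5 TPM and 49.8 to 66.4 TPM, without overlap (log2 fold change 1.05, SE 0.23, adjusted p = 0.0301). The stalk protein Mrpl10 (chr11:97041582-97049213) measured 48.9, 42.6, 23.8 and 38.4 TPM and 81.2, 90.1, 55.2 and 68 TPM, without overlap (log2 fold change 0.94, SE 0.25, adjusted p = 0.0425). Mrpl49 (chr19:6053630-6057755), which bacteria lack, measured 58, 34.2, 28.9 and 32.4 TPM and 91.8, 85.8, 56.7 and 56.8 TPM, and the sorts overlapped at Aβ42+ replicate 1 (log2 fold change 0.92, SE 0.26, adjusted p = 0.048).

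The member that fell was Mrpl52 (chr14:54426909-54429750). It measured 254, 248, 164 and 313 TPM in old Aβ42+ and 141, 117, 133 and 118 TPM in old Aβ42− libraries, and every Aβ42− library was below every Aβ42+ library (log2 fold change −0.91, SE 0.21, limma adjusted p = 0.0335). In both ages Mrpl52 was lower and Mrpl41 and Mrpl44 were higher in all Aβ42− than in all Aβ42+ libraries of that age. The share of all genes separated in this way at both ages was not counted. With the pool as a block Mrps6 and Mrps30 were also called lower, with log2 fold changes of −0.63 and −0.41 and adjusted p-values of 0.0444 and 0.0494.

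The 9 genes called higher with the pool as a block and not without it were Mrps15, Mrpl13, Mrpl51, Mrpl43, Mrpl48, Mrpl24, Mrps14, Mrpl50 and Mrps18c. Most of these were singled out after their values were seen, and with the block limma called 25.3% of genes averaging at least 10 TPM higher. Mrps15, the counterpart of a protein that binds the small ribosomal RNA early in bacterial assembly, measured 145, 82.8, 80.9 and 99.6 TPM in old Aβ42+ and 187, 173, 135 and 159 TPM in old Aβ42− libraries, and was higher in the Aβ42− sort of 4 of 4 pools (log2 fold change 0.70, adjusted p = 0.0138 with the block and 0.0542 without). Mrpl13, another conserved protein, averaged 70.1 ± 22.6 TPM in Aβ42+ and 118 ± 29.9 TPM in Aβ42− cells. Mrpl51, which bacteria lack, averaged 54.9 ± 16.1 TPM and 87.5 ± 20.4 TPM, and Mrpl48 averaged 23.2 ± 7.12 TPM and 36.6 ± 5.83 TPM (SD, n = 4). In young mice the same genes averaged 122 ± 23.5 TPM and 123 ± 33.9 TPM (Mrps15), 64.5 ± 9.88 TPM and 75.6 ± 6.55 TPM (Mrpl13), 49.2 ± 8.84 TPM and 59.5 ± 7.24 TPM (Mrpl51), and 19.2 ± 3.98 TPM and 24.4 ± 5.16 TPM (Mrpl48) in Aβ42+ and Aβ42− cells.

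The 7 genes that rose also differed between the libraries of a group. In old Aβ42+, replicate 1, with the highest precursor marker sum (781 TPM) and the lowest background level (1.27 TPM) of its group, was the highest of the 4 for 6 of the 7 genes, beside 29 of all 77 members. Replicate 3, with the lowest precursor sum (141 TPM) and the highest background level (11.6 TPM), was the lowest for 7 of 7, beside 44 of 77. Among old Aβ42− libraries, replicate 3 was the lowest for 6 of the 7. Precursor markers stood at 141 to 781 TPM in old Aβ42+ and 1676 to 2865 TPM in old Aβ42− libraries, and T and NK cell markers at 28.6 to 57.8 and 308 to 457 TPM, and their part in the rise was not tested. Without old Aβ42+ replicate 3, 7 members were called (5 higher, 2 lower), beside 1139 higher and 393 lower of 11611 genes averaging at least 10 TPM. The count was 16 (15 higher, 1 lower) without old Aβ42+ replicate 1 and also 16 (14 higher, 2 lower) without old Aβ42− replicate 3. Of genes averaging at least 10 TPM, the former called 3015 higher and 2788 lower of 12879, and the latter 2554 and 2521 of 12812. The count of members was 0 without any one of old Aβ42+ replicates 2 and 4 and old Aβ42− replicates 1, 2 and 4. It was also 0 with background as a covariate. With median-of-ratios scaling 6 members were called higher and 2 lower, beside 1215 and 1267 of 12986 genes averaging at least 10 TPM.

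**Figure D4:**
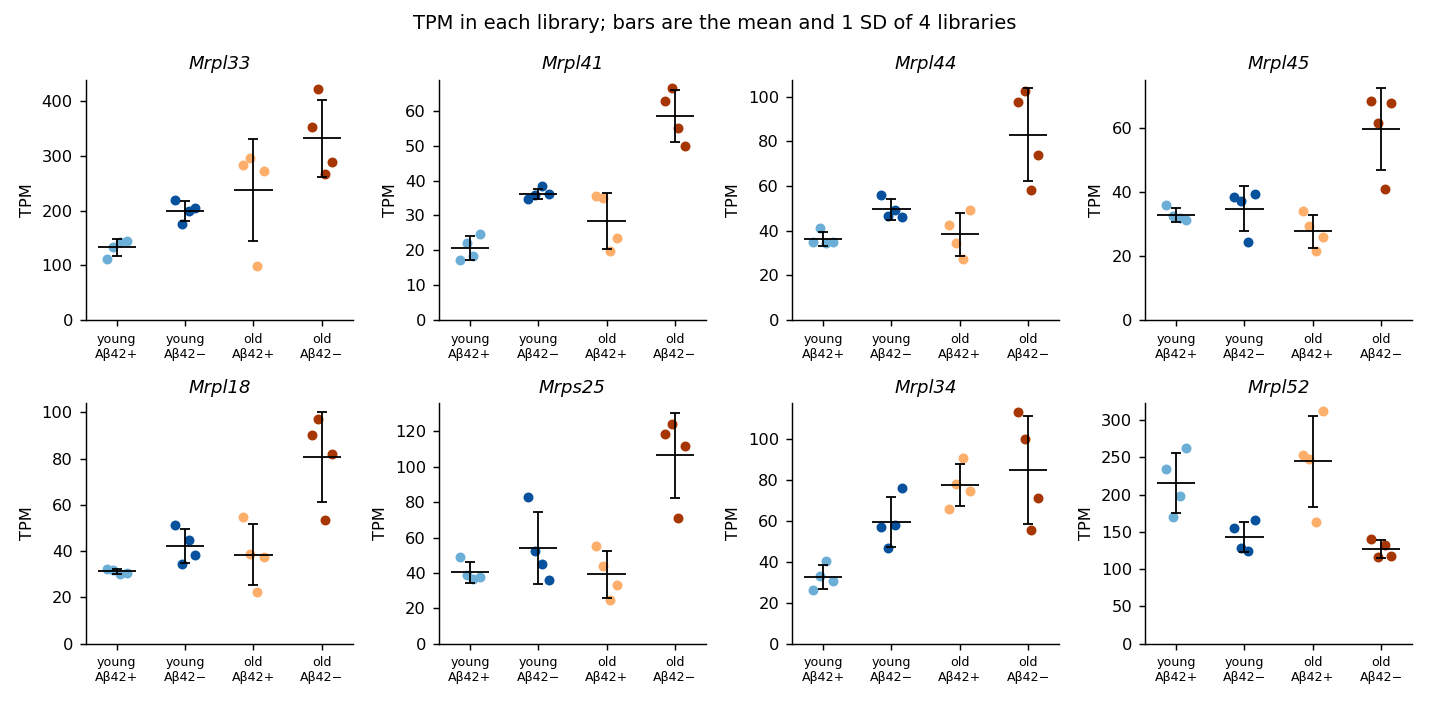
TPM of 8 genes in each of the 16 libraries, with axes that start at 0, where points are libraries and bars are the mean and 1 SD of 4 libraries. Mrps25, Mrpl44, Mrpl45 and Mrpl18 are highest in old Aβ42− cells, Mrpl41 is higher in Aβ42− than Aβ42+ libraries at each age, and Mrpl52 is lower.

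Whether the sorts differed by more in old than in young mice was tested by the interaction of age and sort over all 16 libraries. None of the 77 genes was called by limma, 9 had an unadjusted p no higher than 0.05, and 0.0116% of all genes were called. Such an unadjusted p was found for 6928 of all 34492 genes tested, a larger share than among the members. With the pool as a block 9 members (11.7%), Mrps25, Mrpl44, Mrpl45, Mrpl18, Mrpl10, Mrpl50, Mrpl37, Mrps15 and Mrps18c, were called, all with a more positive Aβ42− against Aβ42+ difference in old mice. In that direction the block called 5.32% of all genes and 14% of genes averaging at least 10 TPM, and in the other direction 31.6% and 17.2%. Mrpl37, a large-subunit protein related in sequence to Mrps30, measured 127, 97.6, 99.4 and 107 TPM in young Aβ42+ and 113, 86.5, 74.1 and 78.4 TPM in young Aβ42− libraries, and was lower in the Aβ42− sort of every young pool. In old mice it measured 86.6, 88.4, 63.7 and 90.1 TPM in Aβ42+ and 109, 98.1, 93.4 and 99 TPM in Aβ42− libraries and was the higher of the sorts in each pool. The interaction was 0.59, with a limma adjusted p of 0.247 without and 0.0219 with the pool as a block. The members' median interaction was 0.15, that of genes averaging at least 10 TPM 0.161 and that of all genes −0.882.

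The Mrps18 genes are 3 paralogs whose proteins hold different places in the particle. Mrps18a averaged 133 ± 36.9 TPM in young Aβ42+, 117 ± 26.2 TPM in young Aβ42−, 109.8 ± 25.4 TPM in old Aβ42+ and 118 ± 14.7 TPM in old Aβ42− cells (SD, n = 4), and no pair of groups compared was separate. Mrps18b measured 120.4, 95.2, 74.2 and 83.6 TPM in young as against 56.1, 48.5, 71.2 and 58 TPM in old Aβ42− libraries, which did not overlap (log2 fold change −0.66, SE 0.18, limma adjusted p = 0.0789). Mrps18c had the opposite sign in that comparison and was the only one of the 3 called. Between the old sorts Mrps18c measured 178, 181, 86.5 and 124 TPM in Aβ42+ and 201 to 259 TPM in Aβ42− libraries, without overlap (log2 fold change 0.77, SE 0.24, adjusted p = 0.0589, 0.0193 with the pool as a block). A predicted gene covers 30.5% of the exon length of Mrps18b.

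The stalk pair also differed in sign. Mrpl12, which anchors on Mrpl10, averaged 111 ± 37 TPM in old Aβ42+ and 105 ± 20.9 TPM in old Aβ42− cells, while Mrpl10 averaged 38.4 ± 10.6 TPM and 73.6 ± 15.3 TPM (SD, n = 4). Between young and old Aβ42− cells the log2 fold change was −0.41 (SE 0.17) for Mrpl12 and 0.75 (SE 0.17) for Mrpl10, and neither was called, with limma adjusted p-values of 0.188 and 0.0557. The difference between the paralogs, or between the stalk proteins, was not tested in itself.

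**Figure D5:**
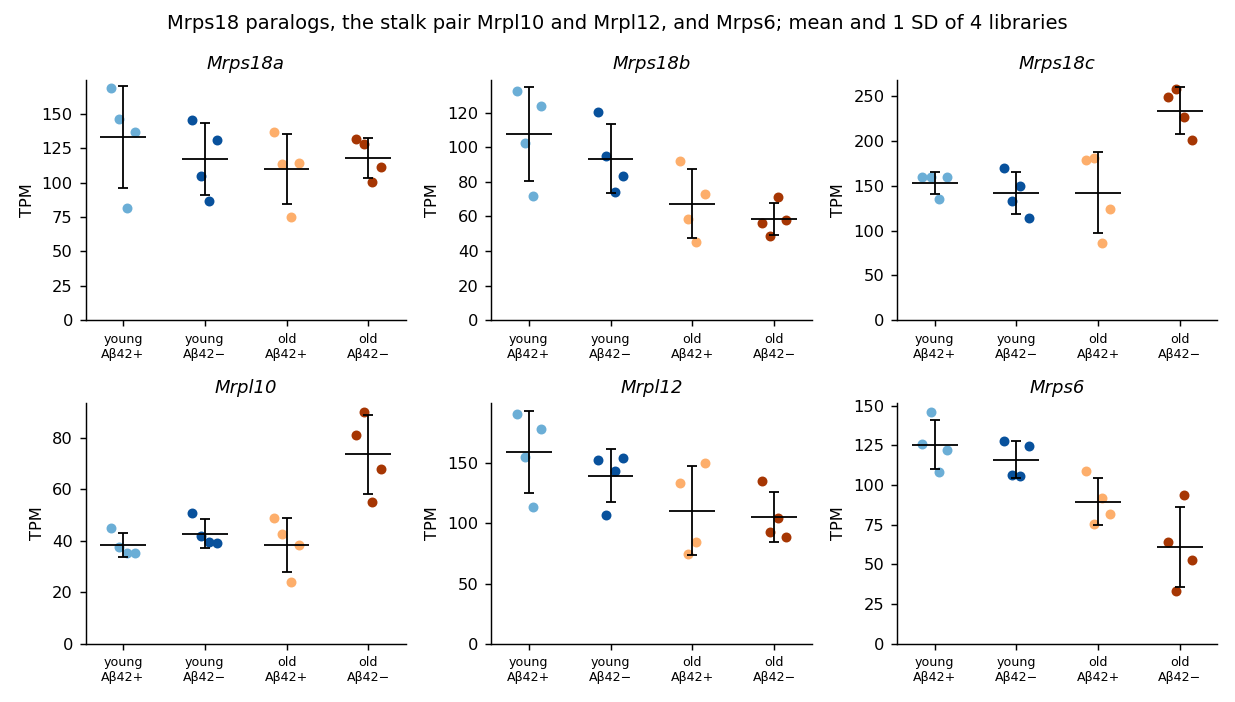
TPM of the 3 Mrps18 paralogs, the stalk genes Mrpl10 and Mrpl12, and Mrps6 in each of the 16 libraries, with axes from 0, points for libraries and bars for the mean and 1 SD of 4 libraries. In old Aβ42− cells Mrps18c and Mrpl10 have their highest and Mrps18b, Mrpl12 and Mrps6 their lowest group means.

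The core groups by role gave few calls. None of the 8 conserved large-subunit genes and none of the 6 conserved small-subunit genes examined as sets above was called in any of the 4 comparisons without a block. Both sets are selections, and they leave out other members with a bacterial counterpart, such as Mrpl33 and Mrpl18, which were called. Mrpl24 and Mrps14 were called higher in Aβ42− cells of old mice with the pool as a block. In these 2 sets the log2 fold changes between the old sorts lay between −0.203 and 0.731 and between −0.195 and 0.43. Of the 5 small-subunit proteins examined above that bacteria lack, Mrps25 alone was called, between the old sorts. Mrps7, the most abundant small-subunit gene, was lower in value in old cells. It averaged 227 ± 27.8 TPM and 163 ± 24.3 TPM in Aβ42+ cells of young and old mice and 185 ± 23 TPM and 149 ± 16 TPM in Aβ42− cells, and the ages overlapped in both sorts. Mrpl3, which lies at the peptidyl transferase centre, averaged 124 ± 17.9 TPM, 107 ± 17.7 TPM, 100 ± 10.2 TPM and 94.2 ± 10.5 TPM in young Aβ42+ and Aβ42− and in old Aβ42+ and Aβ42− cells (SD, n = 4). Mrps12 averaged 19.3 ± 4.36 TPM, 22.7 ± 1.82 TPM, 31.6 ± 8.34 TPM and 36.3 ± 14.6 TPM in the same order.

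The upstream sequences of the members could be read from RefSeq (GRCm38.p6, the assembly of mm10) for 68 of the 77 genes, as 74 windows from 250 bases before to 50 after the start site. Nuclear genes for mitochondrial proteins are known to hold sites for ETS factors such as GABP, for NRF1 and for YY1 near their start, so these letters were searched on both strands. NRF1 letters (GCNTGCGC, where N is any base) were in the windows of 22 members (32.4%), against 11.2% of 27025 genes. ETS letters (CCGGAAGT) were in 12 (17.6%), against 4.31%, and YY1 letters (AAGATGGCG) in 8 (11.8%), against 1.64%. SP1 letters (GGGCGG) were in 50% against 38.2%, CCAAT in 39.7% against 41.1%, the E-box CACGTG in 7.35% against 8.09% and TATAAA in 7.35% against 15.7%. Median GC content was 58.0% in the members' windows and 52.8% in all. A match to these letters is a description of sequence only.

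Of the 11 genes called in any comparison, all 11 had a promoter entry and 5 held NRF1, ETS or YY1 letters within a core of 150 bases, from 120 before to 30 after the start site. These 5 cores are shown because they belong to genes whose level differed between groups. They are written from 5′ to 3′ on the strand of the gene, with the matched letters in capitals. Mrpl44, at chr1:79775898-79776047 (plus strand), holds NRF1 letters. Mrpl33, at chr5:31613831-31613980 (plus strand), holds NRF1 and ETS letters close to each other. Mrpl45, at chr11:97315596-97315745 (plus strand), holds 4 NRF1 matches, of which the last pair overlap, around a start site that lies inside the span given for the gene above. Mrpl49, at chr19:6057726-6057875 (minus strand), holds NRF1 letters, and Mrpl52, at chr14:54426789-54426938 (plus strand), the only called gene that fell, holds ETS letters just past its start.
Mrpl44: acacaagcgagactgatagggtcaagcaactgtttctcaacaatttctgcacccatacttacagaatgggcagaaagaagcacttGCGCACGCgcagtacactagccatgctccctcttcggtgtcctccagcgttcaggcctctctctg
Mrpl33: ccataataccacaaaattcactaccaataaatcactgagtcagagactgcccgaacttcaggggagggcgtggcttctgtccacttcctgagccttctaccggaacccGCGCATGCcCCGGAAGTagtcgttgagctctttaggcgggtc
Mrpl45: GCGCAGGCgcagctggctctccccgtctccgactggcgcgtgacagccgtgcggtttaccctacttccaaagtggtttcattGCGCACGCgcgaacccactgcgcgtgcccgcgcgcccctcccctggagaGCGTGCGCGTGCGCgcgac
Mrpl49: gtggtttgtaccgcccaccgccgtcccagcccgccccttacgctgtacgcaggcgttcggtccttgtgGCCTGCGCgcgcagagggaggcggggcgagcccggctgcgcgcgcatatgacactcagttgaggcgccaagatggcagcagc
Mrpl52: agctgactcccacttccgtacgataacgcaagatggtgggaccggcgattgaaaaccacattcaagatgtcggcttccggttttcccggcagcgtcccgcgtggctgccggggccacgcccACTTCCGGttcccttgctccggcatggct
Mrpl41, Mrpl50, Mrps18c, Mrps25, Mrpl10 and Mrpl18 held none of these letters in the same core. The letters were therefore in the cores of some of the genes called higher and of the gene called lower, and not in the cores of the others. The core is narrower than the windows counted above, from 250 bases before to 50 after the start site. In those windows Mrpl10 held NRF1 letters at −134, and Mrps18c and Mrpl18 held ETS letters at −157 and −240. Mrpl41, Mrpl50 and Mrps25 held none there either. The share of all members or all genes with these letters in the core was not examined.

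The other genes of mitochondrial translation were followed through lists. Of 24 assembly and RNA modification factors of the mitochondrial ribosome, none was called between old and young Aβ42+ cells, 2 were called higher in old than in young Aβ42− cells, 1 was called higher in Aβ42− cells of young mice and 3 in those of old mice, and none was called lower. Of all genes tested, limma called 1.73%, 1.43% and 4.74% higher in the last 3 of these comparisons. Of genes averaging at least 10 TPM it called 4.75%, 3.69% and 11.6% higher. In old mice the pool as a block gave 4 factors higher and 1 lower between the sorts. Beside these stood 10.7% higher and 47.2% lower of all genes, and 25.3% and 23% of genes averaging at least 10 TPM. Rbfa, which helps the small subunit to mature, measured 73.9, 65.2, 66.4 and 58.8 TPM in young Aβ42+, 209, 133, 150 and 166 TPM in young Aβ42−, 143, 88, 58.3 and 83.3 TPM in old Aβ42+ and 319, 339.5, 212 and 274 TPM in old Aβ42− libraries. The sorts did not overlap at either age, with a log2 fold change of 1.29 (SE 0.15, limma adjusted p = 0.00242) in young and 1.66 (SE 0.27, adjusted p = 0.0154) in old mice. Trub2, a pseudouridine synthase that acts on mitochondrial RNA, averaged 8.72 ± 1.79 TPM in young as against 21.1 ± 3.74 TPM in old Aβ42− cells (log2 fold change 1.19, SE 0.23, adjusted p = 0.0433) and 6.84 ± 1.36 TPM in old Aβ42+ cells (1.49 between the old sorts, SE 0.25, adjusted p = 0.0169). Mterf4, which acts with Nsun4 in assembly of the large subunit, averaged 13 ± 1.25 TPM in young as against 28.2 ± 5.78 TPM in old Aβ42− cells (log2 fold change 1.04, SE 0.20, adjusted p = 0.0432) and 11.5 ± 3.33 TPM in old Aβ42+ cells (1.23 between the old sorts, SE 0.26, adjusted p = 0.0288). Rbfa was higher in Aβ42− cells at each age, as were Mrpl41 and Mrpl44 in value.

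Without a block, limma called no gene of the following lists in any comparison. These were 14 genes listed as mitochondrial translation factors, 18 as aminoacyl-tRNA synthetases and 7 as ribosomal proteins with other symbols (such as Dap3 and Ptcd3). With them stood 7 genes of mitochondrial transcription and 13 that mitochondrial DNA encodes. The synthetase list also held Qrsl1, which is not a synthetase, and the list with other symbols Oxa1l, which is not a ribosomal protein. In the fit with the pool as a block, 2 genes of the list with other symbols and 1 of the synthetase list were called higher in Aβ42− than in Aβ42+ cells of old mice. There 3 genes of the synthetase list were called lower. That fit called 10.7% of all genes higher and 47.2% lower, and 25.3% and 23% of genes averaging at least 10 TPM. Between old and young Aβ42− cells, the 77 members had a median log2 fold change of 0.365. The median there was 0.09 for the list of translation factors, −0.065 for the synthetase list and 0.191 for the list with other symbols. It was −0.132 for the 13 genes that mitochondrial DNA encodes. The 76 cytosolic ribosomal protein genes had a median of −0.048 there and no calls in any comparison. The 81 nuclear genes of the respiratory chain and ATP synthase had a median of 0.308. Between the old sorts, where the members' median was 0.155, the medians were −0.146 for cytosolic ribosomal proteins, 0.22 for respiratory chain genes with 1 called higher (11 higher and 1 lower with the pool as a block), and −0.21 for genes of mitochondrial DNA. The libraries were made from polyadenylated RNA, and the 2 ribosomal RNAs of the mitochondrion were not examined.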

How the data were processed

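RNA of Aβ42+ and Aβ42− microglia from young and old mice was sequenced as single reads of 85 bp from polyadenylated RNA, in 16 libraries with 4 per group. The authors trimmed reads with Trim Galore 0.4.2, aligned them to mm10 with STAR 2.5.2a, removed duplicates with Picard 1.89, counted them per RefSeq gene with featureCounts and deposited TPM values. Whether counting used strand, how reads with several matches were treated and the gene lengths are not given in the sources used here. Depth is unknown, so no counting error could be given.

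From the deposited TPM values, log2(TPM + 1) was fitted with limma 3.58.1 (R 4.3.3, mean-variance trend) for genes that reached 1 TPM in 4 or more of the libraries entered. P-values were adjusted over all genes by the Benjamini-Hochberg method, and 0.05 was the threshold. Each comparison used the 8 libraries of its groups, and the interaction all 16. Exact permutation tests over libraries were two-sided. Fold changes on this scale understate those of low genes. The procedure was tested on simulated data drawn with independent noise for each gene. Those data hold no shifts shared by the genes of a library, so that test does not cover such shifts. As libraries of one pool were sorted in 2, the pool was a block in an alternative fit for the sort comparisons. Deviations of the 2 sorts of a pool from their group means correlated at 0.61, 0.04, 0.39 and −0.04 in young and 0.46, 0.05, 0.44 and 0.01 in old pools 1 to 4. The pairing is taken from the sort of a pool, not from these values, which were as high between ages for numbers 1 and 3. Pools are the replicates, and in the age comparisons p-values measure the spread between them. The main fits of the sort comparisons and of the interaction entered the 2 sorts of a pool as independent libraries. Only the fits with the pool as a block used the pairing. Other alternatives were scaling, pseudocount, filter, background level and leaving out libraries.

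Named genes were those called, the 5 highest and 5 lowest fold changes per comparison, the 3 highest and 3 lowest means, and members of defined role. The members and lists were chosen with earlier results of these data known. Gene positions and promoters came from RefSeq (GRCm38.p6).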

Additional observations from a re-analysis of the deposited data

Results flagged for a closer look

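In 11 of 192 groups of 4 libraries, 188 of them over the 47 named members and 4 over the sum of all members, 1 library lay far from the other 3 by Dixon's criterion, which chance meets in about 1 in 20 groups. In young Aβ42+ replicate 3, Mrpl3 measured 97.2 TPM beside 129 to 135 TPM, Mrps7 185 TPM beside 236 to 244 TPM and Mrps18c 135 TPM beside 159 to 160 TPM in the other 3 libraries. In old Aβ42+ replicate 3, Mrpl33 measured 97.9 TPM beside 273 to 297 TPM and Mrpl37 63.7 TPM beside 86.6 to 90.1 TPM. Of the 11 values, 6 came from a replicate 3, the library with the highest background level of each group, the last of them young Aβ42− replicate 3, where Mrpl45 measured 24.5 TPM beside 37.2 to 39.4 TPM. Mrpl44 measured 41.2 TPM in young Aβ42+ replicate 2 beside 34.5 to 34.9 TPM, and Mrpl49 34.5 TPM in young Aβ42+ replicate 1 beside 31.9 to 32.2 TPM. In young Aβ42− cells, Mrps34 measured 55.9 TPM in replicate 2 beside 77.5 to 80.1 TPM, and Mrps10 8.23 TPM in replicate 1 beside 6.62 to 6.76 TPM. Mrpl54 measured 116 TPM in old Aβ42− replicate 4 beside 147 to 152 TPM.

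Mrpl37 was lower in the Aβ42− sort of all 4 young pools and higher in that of all 4 old pools, with an interaction of 0.59 on the log2 scale. The limma adjusted p of that interaction was 0.247, and 0.0219 with the pool as a block, where 5.32% of all genes were called in that direction and 31.6% in the other.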

How the results depend on the processing

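All 42 pairs of a named gene and a comparison kept their direction under the settings tried, those without single libraries included. Many of these pairs were named for extreme fold changes in these same data, so their direction was likely to hold. Of 756 values, 601 stayed on the same side of the threshold, 96 were no longer called and 59 became called. Most pairs were not called in the main fits, so most of the 601 values belong to pairs that stayed uncalled. The counts of members called moved more, and the causes were not tested. Counts over all genes moved as well. Between old and young Aβ42− cells they went from 554 higher and 133 lower in the main fit to 3327 and 10001 without young Aβ42− replicate 1. Between old and young Aβ42+ cells 0 members were called, and 1 with the background covariate or with all 16 libraries. Of genes averaging at least 10 TPM, the covariate fit called 6 higher and 1 lower of 13443. The fit over all 16 libraries called 23 and 2 of 12540. Leaving out single libraries gave 0 to 1 members called, with the 1 without old Aβ42+ replicate 3. The median log2 fold change of 0.096 became −0.141 with upper-quartile scaling and −0.125 after background subtraction. Between old and young Aβ42− cells the 4 called became 0 with upper-quartile scaling or the background covariate, 2 without a filter or with a pseudocount of 0.1, 6 with median-of-ratios scaling (3 higher, 3 lower), 11 after background subtraction, 13 with a mean of at least 5 TPM, 15 with the replicate block and 0 to 30 without single libraries, and the median of 0.365 became 0.166 with the background covariate. Libraries of the same number and different age come from different mice, so that block rests on a shared number only. Their deviations correlated at 0.57, 0.02, 0.52 and 0.03 (Aβ42+) and 0.53, −0.04, 0.35 and 0.02 (Aβ42−) for numbers 1 to 4, as highly as those of the sorts of a pool, and 6 of 8 and 4 of 8 libraries correlated best with their own number. In young mice the 2 called between the sorts became 0 with upper-quartile scaling or all 16 libraries, 1 with median-of-ratios scaling or background subtraction and 0 to 1 without single libraries. Of genes averaging at least 10 TPM, median-of-ratios scaling called 538 higher and 137 lower of 12229, and background subtraction 416 and 80 of 10228. With the pool as a replicate block 1 member was called, in the opposite direction (Mrpl52, lower), beside 446 higher and 131 lower of 12200 such genes. In old mice the 8 called became 4 with upper-quartile scaling, 5 after background subtraction or with a pseudocount of 0.1, 0 with the background covariate, 14 with all 16 libraries, 19 with the pool as a replicate block and 0 to 16 without single libraries, and the median of 0.155 became 0.496 after background subtraction. Of genes averaging at least 10 TPM, upper-quartile scaling called 1433 higher and 912 lower of 12336, and background subtraction 957 and 550 of 10716. A pseudocount of 0.1 called 1151 and 825 of 12686. All 16 libraries called 2287 and 1851 of 12540, and the pool as a block 3215 and 2915 of 12686. The interaction had 0 members called, and 9 with the pool as a replicate block, all higher. That block called 1761 higher and 2158 lower of 12540 genes averaging at least 10 TPM. An alternative chosen after seeing the data, leaving out replicate 3 of every group, gave 7, 19, 0 and 25 members called in the 4 comparisons in the order above. Of genes averaging at least 10 TPM, it called 333 higher and 317 lower of 11739, and 1586 and 600 of 11218. In the sort comparisons it called 344 and 45 of 11376, and 3298 and 2079 of 11563. The values hold no read counts, so count-based tests could not be run and the precision of low values is unknown.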
